A study of Homo sapiens with 5 samples.

Results

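The plexin and neuropilin genes are described here across HEK293 cells with and without a single-base change in SIRT3. The family was taken by gene symbol: PLXNA1, PLXNA2, PLXNA3, PLXNA4, PLXNB1, PLXNB2, PLXNC1, PLXND1, NRP1 and NRP2. Of these 10 genes, 9 had a row among the 16677 genes of the deposited count table. PLXNA4 had none and was not analysed here. HEK293 is an established human line derived from embryonic kidney. The study measured messenger RNA by sequencing in 2 wild-type libraries, labelled Control, and in 3 libraries of cells carrying the T-to-C change of rs11607019, all under basal culture conditions. The labels do not state if libraries within a group represent different clones or repeat cultures, so the spread between libraries may be technical. If they are clones, differences between clones cannot be told apart from those between the groups. The family was chosen by the level difference of PLXNB2 between these same groups, seen beforehand in these libraries. Its differences between the groups are therefore given as a description. No p-value is printed for any of its genes, and counts of those past a threshold carry no weight as evidence.

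Plexins are transmembrane receptors for semaphorins, guidance proteins that steer axons, vessels and epithelial tubes. The cytoplasmic part of a plexin acts on small GTPases of the R-Ras and Rap family, and B-type plexins also bind the exchange factors ARHGEF11 and ARHGEF12, which activate RhoA. Neuropilins have a short cytoplasmic end and serve as co-receptors, binding secreted semaphorins together with A-type plexins and binding VEGF together with VEGF receptors. In the developing kidney, B-type plexins are known for a role in the branching of the ureteric epithelium.

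Each library held between 17122569 and 17596084 counts over all genes. Levels are given as counts-per-million values (CPM) after scaling by trimmed mean of M-values (TMM), whose factors lay between 0.9835 and 1.008. The libraries most alike in counts over all genes were wild-type 2 and variant 3, with a chi-square per degree of freedom of 17.34, where the wild-type pair had 25.5 and the variant pairs 24.29 to 34.39. Of 16310 genes tested by edgeR's quasi-likelihood fit, 0 (0%) passed an adjusted p of 0.05, 1243 had an unadjusted p under 0.05, and DESeq2's Wald test called 32. Of 8 markers chosen for HEK293, 5 had a row (PAX2, LHX1, VIM, KRT8 and KRT18). Their summed level was 639 to 907 CPM in the wild-type and 748 to 1126 CPM in the variant libraries. VIM (means of 377 CPM in wild type and 472 CPM in the variant) and KRT8 (290 and 331 CPM) made up most of it. PAX2 had means of only 16.7 and 15.9 CPM, and LHX1 of 18.9 and 14.6 CPM. The neuronal filament genes NEFL, NEFM and INA, described in this line, had no row. Of 20 markers of endothelial cells, blood cells, fibroblasts, hepatocytes and squamous epithelium, COL1A1 alone had a row, at 28.4 to 46.3 CPM in the wild-type and 28.7 to 44.96 CPM in the variant libraries.

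Per length, PLXNB2 was the most abundant transcript of the family in every library. PLXNB2, a receptor for SEMA4C and for angiogenin, stood at 39.3 ± 6.10 CPM per kilobase in wild type (SD, n = 2) and 67.1 ± 4.04 in the variant (SD, n = 3), with the longest GENCODE transcript of each gene as its length. NRP1, the co-receptor for SEMA3A and VEGFA, followed in wild type at 15.7 ± 2.68 CPM per kilobase (SD, n = 2), and PLXNA1, its plexin partner, stood at 13.7 ± 2.29 (SD, n = 2). The libraries of NRP1 and PLXNA1 overlapped, so their order was not resolved. PLXNA3 and PLXND1 came next in wild type, with 8.41 ± 0.0315 and 7.74 ± 0.435 CPM per kilobase (SD, n = 2). NRP2 at 4.82 ± 0.648 and PLXNB1 at 4.49 ± 0.0357 CPM per kilobase overlapped each other (SD, n = 2). PLXNA2 had 3.58 ± 0.668 and PLXNC1, the receptor for SEMA7A, had 0.350 ± 0.0664 CPM per kilobase (SD, n = 2). In the variant the order of means was PLXNB2, PLXNA1, NRP1, PLXNA3, PLXND1, PLXNB1, NRP2, PLXNA2 and PLXNC1. From PLXNA1 to PLXNB1 the variant libraries of each gene overlapped those of the next, as did those of NRP2 and PLXNA2. The order within these sets was therefore not resolved. PLXNB1 was at place 7 in wild type and place 6 in the variant, with 8.88 ± 2.87 CPM per kilobase (SD, n = 3). With all exons of a gene merged as its length, PLXNB2 kept place 1 and PLXNC1 place 9, PLXNB1 was at place 6 in both groups, NRP1 moved from place 2 to place 3 in wild type, and NRP2 moved from place 6 to place 8.

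PLXNB2 was higher in each variant library than in each wild-type library. PLXNB2 (ENSG00000196576) spans 50274979 to 50307627 of chromosome 22 on GRCh38 in GENCODE release 29, read on the reverse strand, and no other annotated gene overlaps it. It had 3828 counts in wild-type 1 and 4878 in wild-type 2. In variant 1, variant 2 and variant 3 they were 7081, 7284 and 8104. On the CPM scale PLXNB2 stood at 223 and 278 in the wild-type libraries and at 409, 418 and 458 in the variant libraries. The lowest variant library thus lay above the higher wild-type library, and the groups did not overlap. The group means were 251 ± 38.9 CPM (SD, n = 2) and 428 ± 25.8 CPM (SD, n = 3), a ratio of 1.71, and the gap between them exceeded the SD of either group. The fitted log2 fold change was 0.77 (SE 0.15). Leaving out wild-type 2 gave 0.94 and leaving out variant 3 gave 0.72, these being the pair of libraries most alike. Counting error was small beside this gap, with 95% Wilson intervals of 271 to 287 CPM (before TMM scaling) in wild-type 2 and 393 to 412 in variant 1, which cover counting error only. In bulk libraries, more transcript per cell and a larger share of cells with the transcript cannot be told apart.

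PLXNB1, the receptor for SEMA4D, had the larger fold change but a wide spread. PLXNB1 (ENSG00000164050) spans 48403854 to 48430051 of chromosome 3, also read on the reverse strand. It stood at 32.99 CPM in wild-type 1 and 32.6 CPM in wild-type 2. In variant 1, variant 2 and variant 3 it stood at 82.7, 70.3 and 41.7 CPM. Variant 1 and variant 2 were thus well above both wild-type libraries, while variant 3 was nearer to them without overlapping. The counting interval of variant 3 was 39.1 to 45.2 CPM before TMM scaling and that of wild-type 1 was 30.4 to 35.9. The group means were 32.8 ± 0.261 CPM (SD, n = 2) and 64.9 ± 21.0 CPM (SD, n = 3), with a log2 fold change of 0.98 (SE 0.27). Variant 3, the highest variant library for PLXNB2, was the lowest for PLXNB1.

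**Figure D1:**
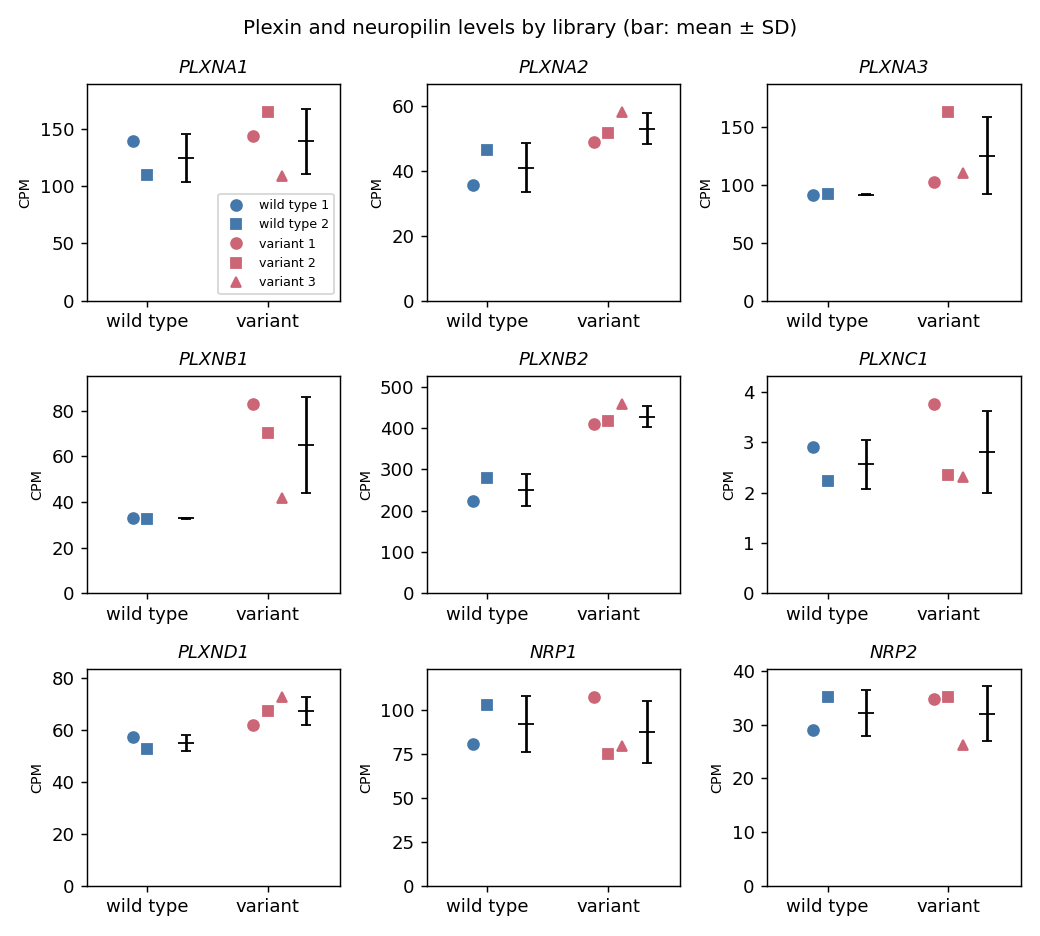
Level of each of the 9 plexin and neuropilin genes in CPM (vertical axis, from 0, scaled separately for each gene) by library, with wild-type libraries in blue, variant libraries in red and the mean ± SD of each group as a black bar. The 3 variant libraries of PLXNB2 sit between 409 and 458 CPM, above the wild-type libraries at 223 and 278 CPM, while the groups overlap for PLXNA1, PLXNC1, NRP1 and NRP2.

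The promoters of PLXNB1 and PLXNB2 are shown, with those of PLXNA1 and PLXNA3 beside them. PLXNA3 was, like PLXNB1 and PLXNB2, higher in each variant library, so these windows do not set raised genes against others. Each window is the 250 bases before a RefSeq start on GRCh38.p14, read 5′ to 3′ on the strand of the gene. Capitals mark GGGCGG, the GC box, and CCAAT, each searched on both strands, so that CCGCCC and ATTGG are also in capitals. The windows are chr22:50301670-50301919 (reverse strand) for PLXNB2, chr3:48430087-48430336 (reverse strand) for PLXNB1, chr3:126982865-126983114 (forward strand) for PLXNA1 and chrX:154458031-154458280 (forward strand) for PLXNA3.
PLXNB2: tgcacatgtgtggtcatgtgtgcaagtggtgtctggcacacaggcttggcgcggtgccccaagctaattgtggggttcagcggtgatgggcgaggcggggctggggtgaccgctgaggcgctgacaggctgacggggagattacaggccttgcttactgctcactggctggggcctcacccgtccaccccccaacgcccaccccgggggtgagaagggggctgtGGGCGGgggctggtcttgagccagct
PLXNB1: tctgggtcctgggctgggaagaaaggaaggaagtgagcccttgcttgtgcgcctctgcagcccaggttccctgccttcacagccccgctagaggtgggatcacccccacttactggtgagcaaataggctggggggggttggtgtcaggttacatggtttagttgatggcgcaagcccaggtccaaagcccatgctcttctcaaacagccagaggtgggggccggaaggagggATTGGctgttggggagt
PLXNA1: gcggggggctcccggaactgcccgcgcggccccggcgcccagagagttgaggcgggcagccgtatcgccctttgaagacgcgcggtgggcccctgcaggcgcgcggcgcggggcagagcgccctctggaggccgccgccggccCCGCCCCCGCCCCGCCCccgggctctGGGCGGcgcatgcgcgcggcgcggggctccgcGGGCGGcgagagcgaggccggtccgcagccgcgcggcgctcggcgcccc
PLXNA3: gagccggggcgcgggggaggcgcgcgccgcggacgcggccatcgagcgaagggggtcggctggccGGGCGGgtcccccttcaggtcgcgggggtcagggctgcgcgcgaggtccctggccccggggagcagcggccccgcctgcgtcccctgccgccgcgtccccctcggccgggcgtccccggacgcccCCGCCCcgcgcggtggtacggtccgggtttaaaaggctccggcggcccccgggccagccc
The PLXNB2 window holds 1 GC box and no CCAAT, and the PLXNB1 window holds no GC box and 1 CCAAT. The PLXNA1 window holds 5 GC boxes, a pair of which overlaps, and the PLXNA3 window holds 2. The window of PLXNA2, also higher in each variant library, is not shown. It holds 3 GC boxes and no CCAAT and is 72.4% G or C. PLXND1 was higher in each variant library as well, and its window, which overlaps PLXND1 exons, is not shown. That of PLXND1 holds 9 GC boxes and no CCAAT and is 88.8% G or C. Of 34943 RefSeq promoter windows of 250 bases, 42.5% hold a GC box and 32.04% hold CCAAT. The windows were 66.4% G or C for PLXNB2, 59.6% for PLXNB1, 84.4% for PLXNA1 and 82.8% for PLXNA3, where the median of all windows was 58.0%. The RefSeq table also lists another start for PLXNB1, whose window overlaps PLXNB1 exons and is not shown. That window holds 5 GC boxes and no CCAAT and is 79.2% G or C, so whether PLXNB1 and PLXNB2 share the GC box depends on the start taken. The RefSeq starts shown for PLXNB2 and PLXNA1 lie at other positions than the outermost GENCODE ends of these genes. The PLXNB2 window lies inside the GENCODE span of the gene, downstream of its outermost start. Its motifs and base composition may thus not describe the sequence before that outer start. The PLXNA1 window lies upstream of the GENCODE start of the gene, at 126988594. Which start was used in these cells was not analysed here.

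Among the A-type plexins, PLXNA2 and PLXNA3 were higher in each variant library than in each wild-type library, and PLXNA1 was not. PLXNA3, a partner of NRP2 in signalling by SEMA3F, stood at 91.3 and 91.8 CPM in the wild-type libraries. In variant 1, variant 2 and variant 3 it stood at 102, 163 and 110 CPM. Variant 2 was far above the other variant libraries, and the log2 fold change of 0.45 (SE 0.21) became 0.22 without variant 2. PLXNA3 (chromosome X, 154458281 to 154477779) overlaps LAGE3 on the opposite strand, as PLXNC1 overlaps CEP83, and the strand setting of the counting is not given in the sources used here.

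PLXNA2, which binds SEMA6A as well as secreted semaphorins through neuropilins, stood at 35.6 and 46.4 CPM in wild type. It stood at 48.8, 51.8 and 58.2 CPM in variant 1, variant 2 and variant 3. The gap between wild-type 2 and variant 1 was smaller than the gap between the wild-type libraries. The log2 fold change was 0.37 (SE 0.18), and it was 0.19 without wild-type 1 and 0.57 without wild-type 2. PLXNA1 stood at 139 and 110 CPM in wild type and at 144, 165 and 108 CPM in variant 1, variant 2 and variant 3, so both wild-type libraries lay within the range of the variant libraries. Its log2 fold change of 0.16 (SE 0.20) was smaller than its error.

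PLXND1, the receptor for SEMA3E known for its part in vessel patterning, stood at 57.1 and 52.8 CPM in wild type. It stood at 61.8, 67.3 and 72.7 CPM in variant 1, variant 2 and variant 3. The groups did not overlap, and the spread within them was narrow, with means of 54.9 ± 3.09 CPM (SD, n = 2) and 67.3 ± 5.45 CPM (SD, n = 3). The log2 fold change was 0.29 (SE 0.16). PLXNC1 was near the lower end of what was measured, with 50 and 39 counts in wild type and 65, 41 and 41 in the variant. Its groups overlapped, with a log2 fold change of 0.13 (SE 0.35).

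Unlike PLXNA2, PLXNA3, PLXNB1, PLXNB2 and PLXND1, the neuropilins were not higher in each variant library. NRP1 stood at 81.0 and 103 CPM in wild type and at 108, 75.3 and 79.4 CPM in variant 1, variant 2 and variant 3. NRP2, the co-receptor for SEMA3F, stood at 29.1 and 35.2 CPM in wild type and at 34.8, 35.1 and 26.2 CPM in the variant libraries. The groups overlapped for both genes. The log2 fold changes were −0.08 (SE 0.20) for NRP1 and 0.00 (SE 0.20) for NRP2, each smaller than its error.

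All 9 genes passed the filter on low counts. By edgeR, 0 of the 9 passed the adjusted threshold (0% of all tested genes), and 2 of 9, PLXNB1 and PLXNB2, had an unadjusted p under 0.05, higher in the variant (4.11% of all tested genes were so in that direction, 3.51% in the other and 7.62% in either). DESeq2's Wald test called 1 of 9, PLXNB2 (0.217% of all genes with an adjusted p in that test). The groups did not overlap for 5 of 9, PLXNA2, PLXNA3, PLXNB1, PLXNB2 and PLXND1, each higher in the variant (11.8% of all tested genes in that direction and 24.8% in either). Because the family was chosen from this contrast, nothing is read from these shares. The log2 fold change was above 0 for 7 of 9 genes (50.5% of all tested genes), with a median of 0.29, beside a median of 0.003 over all tested genes. The summed level of the 9 genes was 692 and 752 CPM in wild type and 995, 1048 and 957 CPM in variant 1, variant 2 and variant 3. Without PLXNB2 the sums were 469 and 474 CPM in wild type and 586, 630 and 499 CPM in the variant. PLXNB2 made up 37.6% and 42.2% of the family's level per length in the wild-type libraries and 46.55%, 46.58% and 54.1% in variant 1, variant 2 and variant 3. Every other member had a share in at least 1 variant library at or below its highest wild-type share.

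Transcripts of the family differ in base composition, and fold changes over all genes differed with it. Where the mean log2 CPM exceeded 3, the 1535 genes with over 60% G or C had a median log2 fold change of 0.12, and the 1780 with at most 40% had −0.18. The GC-rich class deviated from the mean of the 5 libraries by a median of −0.13 in wild-type 1 and −0.01 in wild-type 2. For variant 1, variant 2 and variant 3 the medians were −0.07, 0.07 and 0.12, so that variant 1 was low and the groups overlapped. PLXNB2 followed this order over the variant libraries, with deviations of 0.25, 0.28 and 0.41, and was also lower in wild-type 1 than in wild-type 2. PLXND1 followed it over the variant libraries, with −0.003, 0.12 and 0.23, but was lower in wild-type 2. PLXNB1 and PLXNA1 did not follow this order, with their lowest variant value in variant 3. The transcripts of PLXND1 (63.5% G or C), PLXNB2 (63.1%), PLXNB1 (62.3%) and PLXNA1 (61.6%) fell in the first class. NRP1 (44.7%) and PLXNC1 (46.9%) had the lowest shares of the family. Once each library was adjusted for the GC content and length of transcripts, the log2 fold change was 0.55 (SE 0.14) for PLXNB2 and 0.76 (SE 0.27) for PLXNB1. It was 0.21 (SE 0.19) for PLXNA3, 0.16 (SE 0.18) for PLXNA2 and 0.05 (SE 0.15) for PLXND1, and PLXNA1 turned to −0.10 (SE 0.19). The median of the 9 genes was 0.05 after the correction. PLXNB1, PLXNB2 and PLXNA3 thus had smaller values that remained above their SE, which is a low bar. Those of PLXNA2 and PLXND1 were below their SE. The part of base composition in these differences was not tested beyond this adjustment.

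**Figure D2:**
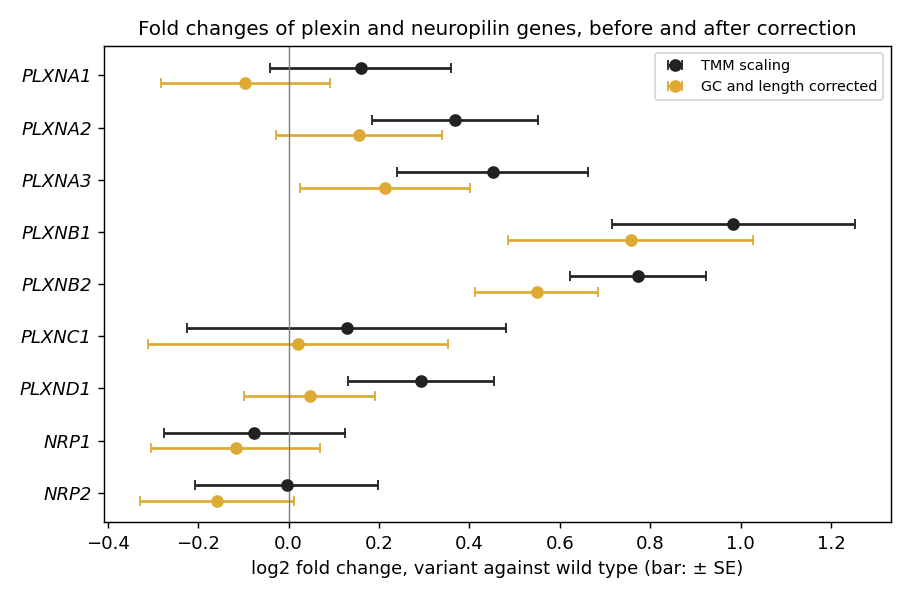
Log2 fold change, variant over wild type (horizontal axis), for each of the 9 genes, with bars of ± SE, as fitted with TMM scaling (black) and adjusted for GC content and length of transcripts (yellow). PLXNB2 moves from 0.77 to 0.55, PLXNB1 from 0.98 to 0.76, and PLXND1 from 0.29 to 0.05.

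The genes beside each family member were compared with it, taking the 5 nearest tested genes on each side. For PLXNB2 the median log2 fold change of the 10 neighbours was 0.07, in a range of −0.11 to 0.71. The highest was DENND6B, the next tested gene on the side of the PLXNB2 start, with a log2 fold change of 0.71 (SE 0.26). The median deviation of the neighbours from the mean of the 5 libraries was −0.30 in wild-type 1 and 0.12 in wild-type 2. In the 3 variant libraries it was 0.00, −0.14 and 0.25. PLXNB2 itself deviated by −0.63 and −0.31 in wild type and by 0.25, 0.28 and 0.41 in the variant. PLXNB2 was thus above the median of its neighbours in each variant library and below it in each wild-type library. Because PLXNB2 was chosen for its difference, this position does not show that the region stayed level. The groups did not overlap for 3 of the 10 neighbours, SELENOO-AS1, DENND6B and SBF1, each higher in the variant, and 0 were lower. Over all tested genes these shares were 11.8% and 13%.

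The 10 neighbours of PLXNB1 had a median log2 fold change of 0.01 (range −0.73 to 0.34). The neighbours of PLXNA3 had values near its own. Their median log2 fold change was 0.35, and 9 of 10 were above 0. In variant 2 these neighbours had a median deviation of 0.45, and PLXNA3 deviated by 0.58. In variant 1 and variant 3 the neighbours deviated by −0.13 and 0.05, and PLXNA3 by −0.09 and 0.02. The neighbours of PLXNA2 had a median of 0.21, and those of PLXND1 0.03. The neighbours of PLXNC1 had a median of −0.29, against its own 0.13, and those of PLXNA1 had −0.03. For NRP1 and NRP2 the medians were 0.10 and −0.05.

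**Figure D3:**
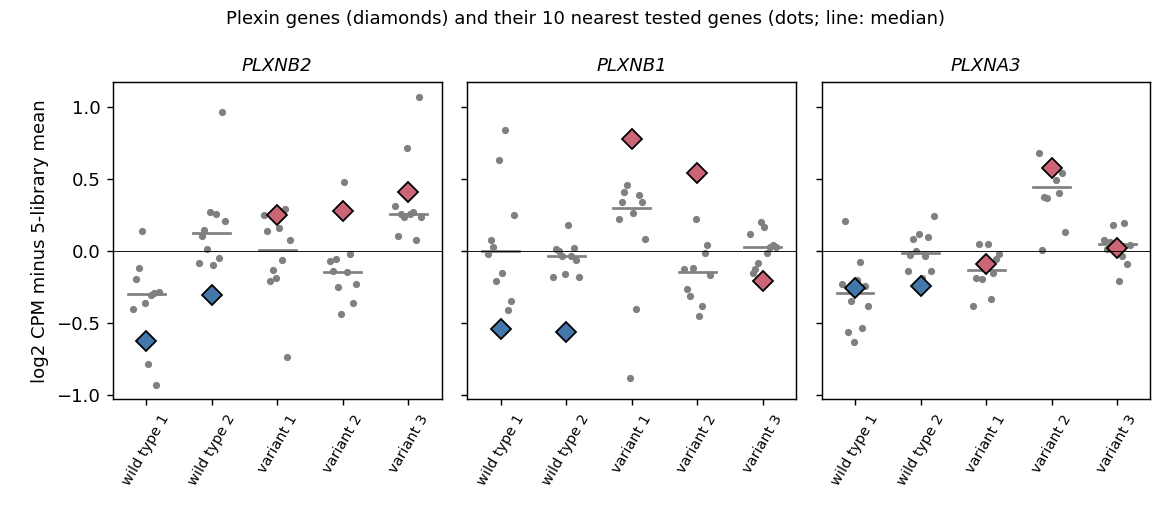
Deviation of log2 CPM from the mean of the 5 libraries (vertical axis) for PLXNB2, PLXNB1 and PLXNA3 (diamonds, blue for wild type and red for variant) and for the 10 nearest tested genes of each (grey dots, with a line at their median), by library. The diamonds of PLXNB2 lie below the neighbours' median in both wild-type libraries and above it in the 3 variant libraries, while PLXNA3 stays close to its neighbours, which are raised in variant 2.

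The profile of PLXNB2 over the 5 libraries was compared with that of each other gene by the root mean square (RMS) difference of log2 CPM after centring each gene on its mean. Over 10863 genes whose mean log2 CPM exceeded 3, the nearest were ODF2 (RMS difference 0.09), WNT9A (0.09), CDH24 (0.09), DOK3 (0.10) and TMEM132A (0.10), on chromosomes 9, 1, 14, 5 and 11. ODF2, for example, stood at 65.4 and 70.7 CPM in wild type and at 103, 116 and 118 CPM in variant 1, variant 2 and variant 3. Within the family PLXNA2 was nearest to PLXNB2, with an RMS difference of 0.20 and place 121 among all genes. PLXND1 followed at 0.28 and PLXNA3 at 0.32. PLXNB1 was farther, at 0.40 and place 3777, although it shares the B type. The pair with the most alike profiles in the family was PLXNA2 and PLXND1 (0.16), and NRP1 with NRP2 came next (0.19). With 5 libraries these distances describe the libraries and carry no test.

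The ligands, partners and effectors of plexins were taken from lists of the pathway. Of 79 listed genes 65 were tested, 36 with a log2 fold change above 0 and 29 below, with a median of 0.05. By edgeR 0 passed the adjusted threshold, the lowest adjusted p in DESeq2's Wald test was 0.09997 (PGF), and 5 of 65 had, by edgeR, an unadjusted p under 0.05, 3 higher and 2 lower in the variant, a share close to the 7.62% of all genes. Of the 20 semaphorins, 16 were tested, with 10 above 0 and 6 below and a median of 0.12. SEMA4D, the ligand of PLXNB1, stood at 32.3 and 28.6 CPM in wild type and at 44.6, 72.5 and 45.97 CPM in variant 1, variant 2 and variant 3. Its log2 fold change was 0.83 (SE 0.24; edgeR adjusted p 0.617), and it was 0.57 without variant 2. The 10 neighbours of SEMA4D on chromosome 9 had log2 fold changes with a median of 0.69, 9 of them above 0, so its region was higher as well.

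SEMA6B, a transmembrane ligand of A-type plexins, stood at 14.98 and 14.0 CPM in wild type and at 15.6, 27.0 and 37.8 CPM in the variant libraries, with variant 1 close to wild type. Its log2 fold change was 0.89 (SE 0.33; edgeR adjusted p 0.617), and without variant 3 it was 0.55. SEMA4C, the ligand of PLXNB2, stood at 53.6 ± 6.49 CPM in wild type (SD, n = 2) and 60.7 ± 7.84 CPM in the variant (SD, n = 3), with overlapping groups. ANG, which encodes angiogenin, was measured at 0.864 ± 0.0682 CPM (SD, n = 2) and 0.897 ± 0.272 CPM (SD, n = 3), a level at which no difference could be resolved.

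Of the 4 tested ligands outside the semaphorins, PGF was lower in each variant library. PGF encodes placental growth factor, which binds neuropilins. It stood at 14.2 and 16.4 CPM in wild type and at 7.92, 8.90 and 8.36 CPM in variant 1, variant 2 and variant 3. Its log2 fold change was −0.86 (SE 0.22; edgeR adjusted p 0.617). Its 10 neighbours on chromosome 14 had a median of 0.36, in the other direction. VEGFA and VEGFB had log2 fold changes of 0.24 (SE 0.17) and 0.06 (SE 0.19).

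Of the 12 receptor partners and processing enzymes, 7 were tested and none had an unadjusted p under 0.05. ERBB2 and MET, receptor kinases that associate with B-type plexins, had log2 fold changes of −0.01 (SE 0.14) and −0.11 (SE 0.19), and FURIN, a protease that cleaves plexin precursors, had 0.01 (SE 0.15). L1CAM, an adhesion molecule that associates with NRP1, stood at 3.67 and 4.05 CPM in wild type. It stood at 2.37, 9.87 and 11.1 CPM in variant 1, variant 2 and variant 3, so that variant 1 was below wild type and the groups overlapped. Its log2 fold change was 1.01 (SE 0.55; edgeR adjusted p 0.687), and leaving out variant 3 gave 0.66, while leaving out variant 1 gave 1.44 (edgeR adjusted p 0.362). GIPC1, ADAM10 and ADAM17 had log2 fold changes of −0.03 (SE 0.14), −0.19 (SE 0.20) and −0.27 (SE 0.23). The VEGF receptor genes KDR, FLT1 and FLT4 had no row and were not analysed here. Of the 5 listed relatives, 4 were tested. PLXNB3, the third B-type plexin, stood at 4.84 and 3.02 CPM in wild type and at 3.06, 13.0 and 3.33 CPM in variant 1, variant 2 and variant 3, so that variant 2 alone was high. DCBLD1 and DCBLD2, neuropilin-like genes, had log2 fold changes of −0.06 (SE 0.24) and 0.06 (SE 0.18).

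Of 36 intracellular effectors 34 were tested, 19 above 0 and 15 below, with a median of 0.06. ARHGEF11 and ARHGEF12, which bind B-type plexins, had log2 fold changes of 0.04 (SE 0.15) and −0.01 (SE 0.18). MICAL3, of a family of actin-oxidising enzymes, stood at 41.9 and 47.4 CPM in wild type and at 79.7, 56.9 and 57.1 CPM in the variant libraries, with a log2 fold change of 0.53 (SE 0.20). RAP1A, a small GTPase on which plexins act, stood at 73.97 and 54.3 CPM in wild type and at 41.8, 49.0 and 47.5 CPM in the variant. Its log2 fold change was −0.48 (SE 0.18), and −0.24 without wild-type 1. The edgeR adjusted p was 0.617 for MICAL3 and 0.621 for RAP1A. Without variant 1 the log2 fold change of MICAL3 was 0.35. Adjusted for GC content and length, MICAL3 had 0.31 and RAP1A −0.32.

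**Figure D4:**
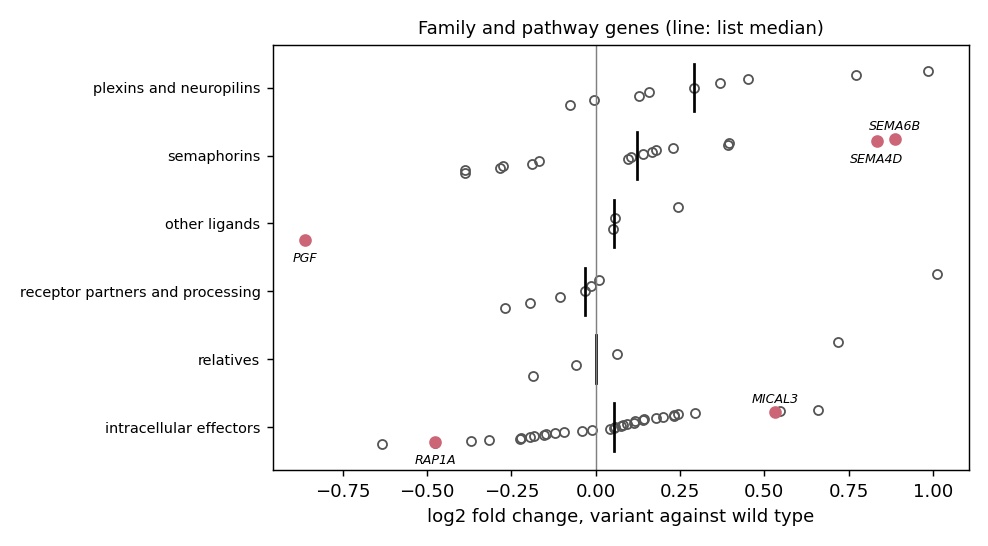
Log2 fold change, variant over wild type (horizontal axis), for each tested gene of the family and of the 5 pathway lists, with a black line at the median of each list. In the 5 pathway lists, filled points have an unadjusted p under 0.05 in edgeR's fit; points of the family are not marked by p. The median is 0.29 for the plexins and neuropilins, 0.12 for the semaphorins and 0.06 for the intracellular effectors, and each filled point has an adjusted p above 0.05 in edgeR's fit.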

How the data were processed

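The authors deposited raw read counts per Ensembl gene for 5 libraries, with no normalization. HISAT2, SAMtools, HTSeq and the build hg38 are named in the submitters' processing notes, without versions. The annotation, the strand setting and any filter are not given in the sources used here. The lowest count in the table was 3. Per the labels' protocols, reads were single-end and of 50 bases, from strand-specific mRNA libraries.

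Of the 16677 identifiers, 16627 were named from a gene name table and 46 from GENCODE release 29, which also gave positions. Genes were filtered with filterByExpr, scaled by TMM and compared in edgeR 4.0.16 (R 4.3.3) by its quasi-likelihood test, with robust dispersions, group as the only term and Benjamini-Hochberg adjustment over 16310 genes. Profiles used log2 CPM with a prior count of 2. DESeq2 1.42.0 and limma-voom 3.58.1 were alternatives, as were other scalings and filters, a replicate block, a correction by splines of GC content and length (5 degrees of freedom, over 16560 genes) and leaving out each library. The fits were tested on simulated counts, drawn independently for each gene and library. These lack the GC trend seen here, so they do not show how the fits deal with it. Pathway genes were named where their unadjusted p was under 0.05, likeness to PLXNB2 named the 5 nearest genes, and neighbours were named for PLXNB2. ADAM10, ADAM17, ANG, ARHGEF11, ARHGEF12, DCBLD1, DCBLD2, ERBB2, FURIN, GIPC1, L1CAM, MET, PLXNB3, SEMA4C, VEGFA and VEGFB fall outside that rule and were chosen after their values were seen, as known relatives or partners. The family and lists were chosen with earlier results of these data known.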

Additional observations from a re-analysis of the deposited data

How the results depend on the processing

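PLXNB2 was higher in the variant in 13 of 13 alternatives, as were PLXNA2, PLXNA3, PLXNB1 and PLXND1. The groups of these genes did not overlap, so leaving out 1 library could hardly turn their sign. The other alternatives reuse the same counts, so this tally carries no weight as evidence. The log2 fold change of PLXNB2 ran from 0.549 with the correction for GC content and length to 0.941 without wild-type 2, and was 0.622 without wild-type 1. PLXNB1 ran from 0.757 to 1.22. DESeq2's Wald test gave 32 genes and 1 gene of the family, PLXNB2, with an adjusted p under 0.05, where edgeR's test gave 0 and 0; the cause was not tested. By edgeR, 0 genes had an adjusted p under 0.05 without variant 1 or variant 2, and 4 did without variant 3. The count at an unadjusted p under 0.05 was 1240, 765 and 1618 without variant 1, variant 2 and variant 3, beside 1243 with all libraries. Among pathway genes it was 6, 5 and 7 in the same order, beside 5 with all libraries. Fits with 1 wild-type library assume that it varies like the variant libraries, so their counts are not given. Signs turned for genes with small differences. Without 1 library, PLXNA1 ran from −0.0018 (without wild-type 2) to 0.340, PLXNC1 from −0.137 (without variant 1) to 0.335, NRP1 from −0.253 to 0.111 (without wild-type 2) and NRP2 from −0.136 to 0.140 (without wild-type 2). PLXNC1 was −0.0535 without wild-type 2, NRP1 was 0.0212 without variant 2 and NRP2 was 0.123 without variant 3. With the correction PLXNA1 was −0.0957 and NRP2 −0.159, and with the replicate block NRP2 was 0.129. Number 3 occurs only in the variant, so variant 3 had a term of its own in the block fit. That fit was thus close to the fit without variant 3 (PLXNB2 0.731 and 0.723), and they are hardly separate alternatives. The labels do not say that replicate numbers pair libraries. Over 10864 genes, deviations from the group means correlated by 0.154 for number 1 and −0.209 for number 2, and by 0.336 for wild-type 2 with variant 3. With 2 wild-type libraries these deviations mirror each other, so the values do not settle pairing. With the replicate block 0 genes had an adjusted p under 0.05. At 39 to 65 counts, PLXNC1 is limited by depth.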
